A study of Mus musculus with 2 samples.

Results

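Genes for the subunits and inhibitors of the transcription factor NF-kappaB were followed in the mouse mammary gland 1 day into involution, the remodelling that dismantles the secretory tissue once the pups stop suckling. The set was chosen by name: the subunit genes Nfkb1, Nfkb2, Rel, Rela and Relb, the inhibitor genes Nfkbia and Nfkbie, the nuclear I-kappaB proteins Nfkbiz and Bcl3, and the kinase gene Ikbke. Every probe set that the platform annotation assigned to 1 of these symbols was taken, which gave 17 of 45101 probe sets and 9 of the 10 genes. Nfkb1 had no named probe set here and was not analysed.

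The tissue came from female CD1 mice bought at 6 weeks of age and mated with CD1 males, with litters adjusted to 6 pups. Pups were removed by force at day 10 of lactation, and glands were collected 1 day later (day 1) or at removal (day 0). No allele or agent distinguished the groups. For each day a pool of RNA from 5 mice was put on 1 Affymetrix Mouse Genome 430 Plus 2.0 array, so there were 2 arrays in all and variation among mice was not recorded. No test is possible between 1 array and 1 array, and every difference below is between these 2 arrays. In whole tissue, fewer cells of a type and less RNA per cell cannot be told apart.

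NF-kappaB works as dimers of Rel family subunits. Rela, Rel and Relb carry activation domains, whereas Nfkb1 and Nfkb2 encode precursors that are processed to DNA-binding subunits without one. In resting cells I-kappaB proteins such as those of Nfkbia and Nfkbie hold the dimers in the cytoplasm. Receptors for cytokines or bacterial products activate the IKK kinase complex, which marks I-kappaB for destruction and frees the dimers. Several genes of the family, among them Nfkbia, Nfkb2, Relb and Bcl3, are themselves textbook targets of NF-kappaB. In the mammary gland the pathway is known for a role in epithelial survival and in branching and alveolar growth, and it is active at the onset of involution.

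RefSeq promoters (GRCm38.p6, 250 bases before to 50 after the start of transcription) were at hand for 7 of the genes, and 5 of these held the kappaB consensus on either strand. Counted by gene, 9.55% of all 27025 genes in the table held it in a promoter. The stretches with the matches are shown because these genes are textbook targets of the factor they encode or restrain. Each is written 5′ to 3′ on the gene's strand with the matching bases in capitals, and overlapping matches are merged.
Nfkb2 (chr19:46304673-46304736, plus strand): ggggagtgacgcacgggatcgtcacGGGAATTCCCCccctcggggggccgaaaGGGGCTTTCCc
Rel (chr11:23771026-23771086, minus strand): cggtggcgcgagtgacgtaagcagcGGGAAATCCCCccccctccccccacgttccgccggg
Nfkbia (chr12:55492648-55492701, minus strand): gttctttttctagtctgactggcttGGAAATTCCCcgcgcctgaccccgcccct
Nfkbie (chr17:45555569-45555628, plus strand): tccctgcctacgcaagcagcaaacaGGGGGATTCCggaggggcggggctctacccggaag
Bcl3 (chr7:19822734-19822763, minus strand): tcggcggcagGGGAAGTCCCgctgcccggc
In Nfkb2, Rel, Nfkbia and Nfkbie the matches lie upstream of the start, whereas in Bcl3 the match covers bases 3 to 12 of the transcript. Nfkb2 has 2 further promoters in the table, which also hold matches. The letters TTCNNNGAA, searched on both strands as the core of a STAT site, occurred in 8.3% of all promoters and, among the members, only in that first Nfkb2 promoter, at bases -148 to -140. A match describes the letters in the window and is no evidence of binding.

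Signals are Affymetrix MAS5 values, an intensity on a linear scale. Values under a floor of 77.7 units, which is the median signal over both arrays, were set to that floor. Day 1 was then divided by day 0 and the quotient given on the log2 scale. A ratio with 1 array at the floor is a bound and is written "at least". For counts over genes, each gene was represented by its brightest probe set, and genes whose brighter array exceeded the floor were counted as measured.

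The members did not move as a block. The subunit gene Rela and the nuclear partner gene Bcl3 were brighter on day 1, and so were Relb and 1 probe set of Nfkbie, which were near background on day 0. Nfkbia and Nfkbiz were dimmer on day 1 at all of their probe sets as deposited, but not under hybridisation control scaling (below 0 at 3 of 5 and 0 of 3 probe sets). Of the 9 genes, 4 passed 2-fold with a higher signal on day 1 and 2 with a lower one. Among all 13239 measured genes these shares were 10.4% and 13.3%. The median log2 ratio was -0.21 for the members and -0.12 for all measured genes. The member median is the ratio of Ikbke alone, a bound close to the floor.

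Which members count as lower depends on how the arrays are scaled. Hybridisation controls, which the usual protocol adds in equal amount, were used where their signal was under 50% of the highest signal on each array. The 15 such probe sets had log2 ratios from -2.14 to -0.50, with the median at -1.16. Scaling on them puts the median over the measured genes at a log2 ratio of 0.97. Median signals were 60.1 units on the day 1 array and 94.2 units on the day 0 array. Beta-actin had a 3′ over 5′ signal of 1.51 on day 1 and 2.50 on day 0. Gapdh had 1.48 on day 1 and 1.52 on day 0. All 7 milk protein markers of the lactating gland were above the floor on both arrays, and all 7 passed 2-fold on the lower side. Their log2 ratios ran from -1.45 to -1.19, with summed signals of 256180 on day 1 and 628905 on day 0. These ratios lie close to the hybridisation control median of -1.16. The highest signals of the arrays were those of Csn3 on day 1 (40090.2) and Glycam1 on day 0 (108570.5). Whether the milk protein signals were at the upper limit of the arrays was not tested. The part of the milk protein genes in the lower signals of Nfkbia and Nfkbiz was not tested.

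**Figure D1:**
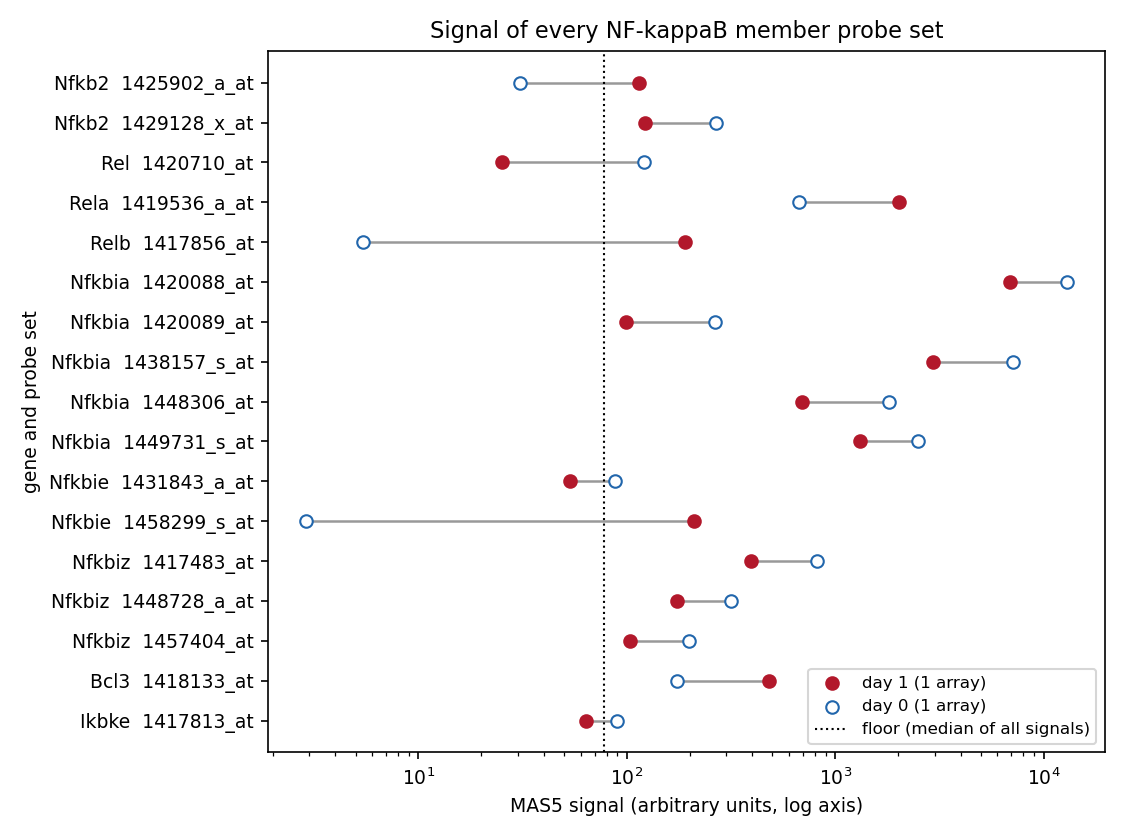
MAS5 signal (log axis) of the 17 member probe sets on the day 1 array (filled) and the day 0 array (open), 1 array each, with the floor of 77.7 dotted. Rela and Bcl3 lie to the right on day 1, and all 5 Nfkbia and 3 Nfkbiz probe sets lie to the left as deposited; under hybridisation control scaling the Nfkbiz probe sets and 2 of the Nfkbia probe sets change side.

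Among the subunits that activate transcription, Rela, the main activating partner of the classical dimer, had a signal of 2033.8 on day 1 against 668.1 on day 0. This was 3.04-fold higher, a log2 ratio of 1.61, with both arrays well clear of the floor. It placed Rela at rank 499 of 13239 genes from the highest ratio, at percentile 96.2. Its log2 ratio stayed between 1.46 and 2.77 under 6 scalings, and its percentile between 94.5 and 96.7. Rela is represented by a single probe set, so no second one can be compared.

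Relb, the activating subunit of the alternative pathway, had a signal of 191.2 on day 1 against 5.4 on day 0. The day 0 value lies under the floor, so the gene was at least 2.46-fold higher. The bound comes from the floor, and the size of the difference above it was not resolved. Rel, the subunit best known from lymphocytes, went the other way, with 25.3 on day 1 against 121.4 on day 0. It was at least 1.56-fold lower, a bound set by the floor that does not place it on either side of 2-fold. With a floor at the 25th percentile (22.3 units), which the day 1 signal only just exceeds, its log2 ratio was -2.26. It kept its sign under all 6 scalings, with bounds from -0.64 to -0.14 log2.

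The 2 probe sets of Nfkb2, the precursor gene of the alternative pathway, disagreed. The brighter, 1429128_x_at, had 122.2 on day 1 against 266.5 on day 0, which was 2.18-fold lower. The other, 1425902_a_at, had 114.2 on day 1 against 30.8 on day 0, at least 1.47-fold higher. The suffix of the brighter one marks probes that may also match unrelated transcripts, and without such probe sets the log2 ratio of Nfkb2 is 0.56. Under hybridisation control scaling the brighter probe set is at 0.04. No direction can be given for this gene.

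Nfkbia encodes I-kappaB alpha, the inhibitor that NF-kappaB itself induces, and has 5 probe sets. The brightest probe set, 1420088_at, had 6864.5 on day 1 against 12917.2 on day 0, 1.88-fold lower. 1438157_s_at had 2938.7 on day 1 against 7142.4 on day 0, 2.43-fold lower. 1449731_s_at had 1315.6 on day 1 against 2502.2 on day 0, 1.90-fold lower. All 3 show the same direction at very different brightness. The other two had 690.7 on day 1 against 1809.2 on day 0 (1448306_at, 2.62-fold lower) and 99.1 on day 1 against 266.2 on day 0 (1420089_at, 2.69-fold lower). The 5 log2 ratios thus ran from -1.43 to -0.91, and 3 of the 5 were past 2-fold. Their range was narrower than the pooled SD of 0.56 log2 between probe sets of the same gene, taken over 3943 genes. The ratios enclose the hybridisation control median of -1.16, and scaled on those controls they ran from -0.26 to 0.25, with 2 of the 5 above 0.

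Nfkbiz, an inducible nuclear I-kappaB protein that works with NF-kappaB on a subset of its targets, showed the same pattern at 3 probe sets. 1417483_at had 394.5 on day 1 against 820.9 on day 0, 2.08-fold lower. 1448728_a_at had 174.5 on day 1 against 315.7 on day 0, and 1457404_at had 103.7 on day 1 against 199.2 on day 0. The log2 ratios were -1.06, -0.86 and -0.94. Scaled on the hybridisation controls they lay between 0.11 and 0.31, all above 0. Under the other scalings all 3 remained below 0.

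Nfkbie, which encodes I-kappaB epsilon, gave 2 contrary readings. The probe set 1458299_s_at had 210.9 on day 1 against 2.9 on day 0, at least 2.71-fold higher. The other, 1431843_a_at, had 53.1 on day 1 against 87.7 on day 0, at least 1.13-fold lower. The first carries the suffix for probes shared between transcripts, and without such probe sets the log2 ratio of the gene is -0.17. The call for Nfkbie therefore rests on 1 dim probe set.

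Bcl3, an I-kappaB protein that acts in the nucleus as a partner of the subunits without an activation domain, had 482.7 on day 1 against 173.6 on day 0. It was 2.78-fold higher, with both arrays above the floor, at percentile 95.2 of all measured genes. Under the 6 scalings its log2 ratio ran from 1.48 to 2.64. Bcl3 and Nfkbiz are both nuclear I-kappaB genes and lay on opposite sides of 0 as deposited, although Nfkbiz is above 0 under hybridisation control scaling. Ikbke, an IKK-related kinase gene, was close to the floor, with 63.7 on day 1 against 89.7 on day 0. It was at least 1.15-fold lower, and its sign changed under loess, quantile normalization and hybridisation control scaling.

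Of the 17 probe sets, 4 passed 2-fold with a higher signal on day 1 and 5 with a lower one. Of all 22699 measured probe sets of named genes, 9.86% did so on the higher side and 12.6% on the lower side. Both arrays were above the floor for 11 of the 17, and the other 6 gave bounds. Among the 11, the single probe sets of Rela and Bcl3 were higher, and the other 9, of Nfkbia, Nfkbiz and Nfkb2, were lower as deposited.

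**Figure D2:**
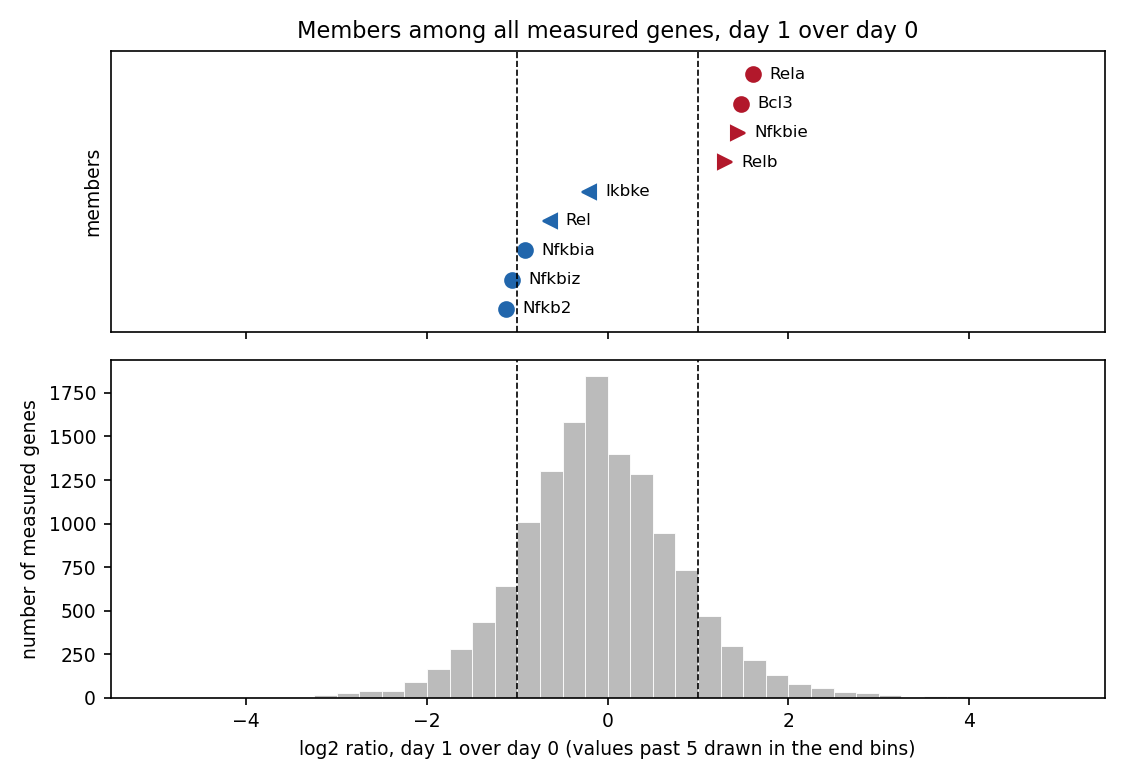
Log2 ratio of day 1 over day 0 for the brightest probe set of each of the 9 members (top; triangles are bounds) above the distribution over 13239 measured genes (bottom), as deposited; dashed lines mark 2-fold. Rela, Bcl3, Nfkbie and Relb lie past the upper line, and Nfkbiz and Nfkb2 just past the lower one, where Nfkbiz, Nfkb2 and Nfkbia move above 0 under hybridisation control scaling.

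A ratio of 2 members within an array is not altered by any single scaling factor. The signal of Rela relative to Nfkbia was 5.73-fold to 8.18-fold higher on day 1 over the 5 Nfkbia probe sets. Relative to the 3 Nfkbiz probe sets, Rela was 5.51-fold to 6.33-fold higher. For Bcl3 the figures were 5.23-fold to 7.47-fold relative to Nfkbia and 5.03-fold to 5.79-fold relative to Nfkbiz. Each figure combines 2 ratios already given, of members that lay on opposite sides as deposited, so it adds no separate support. The share of gene pairs that differ as much was not computed. Between these 2 arrays the ratios of Rela and Nfkbia were unequal, whichever single factor is used. This does not show which of the genes changed.

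**Figure D3:**
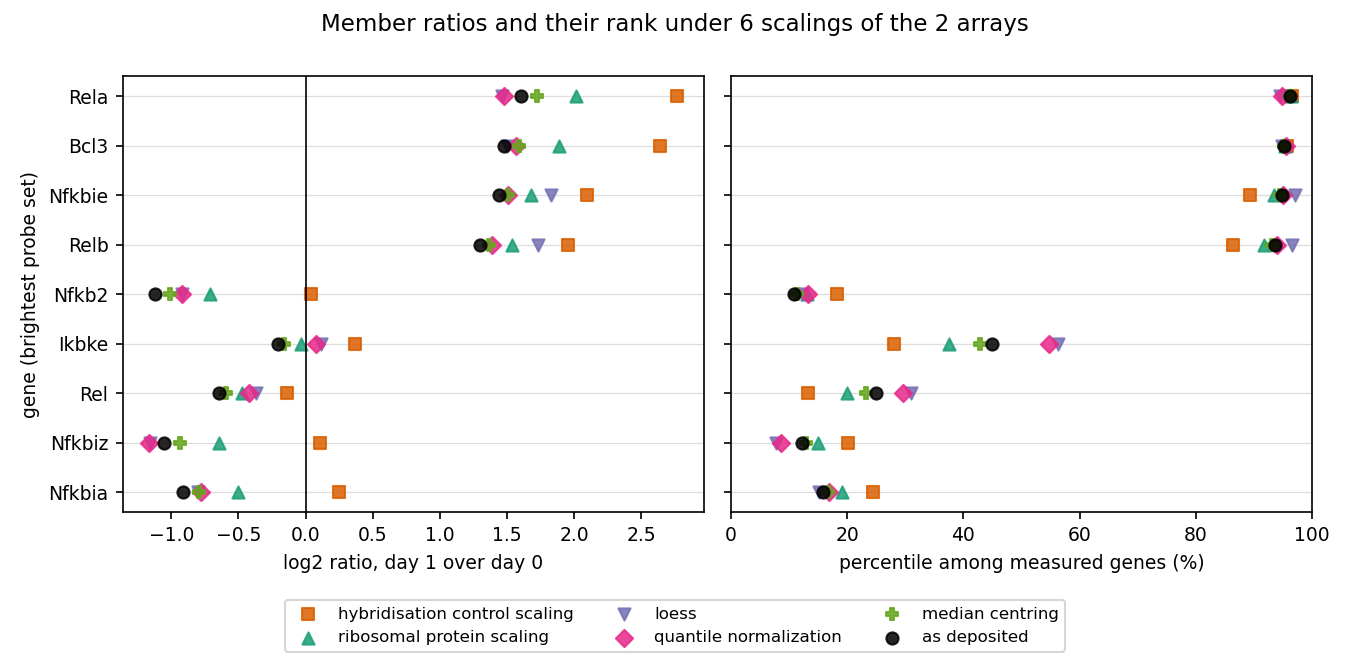
Log2 ratio (left) and percentile among measured genes (right) of the 9 members under 6 scalings of the arrays, 1 symbol for each scaling. Rela and Bcl3 stay above log2 1.4 and percentile 94 under each, whereas Nfkbia, Nfkbiz and Nfkb2 are below 0 under 5 scalings and above 0 under hybridisation control scaling, at percentiles from 18.2 to 24.4.

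The genes that feed into NF-kappaB were described from a list of 33 receptors and ligands, of which 26 were measured. Of these, 3 passed 2-fold on the higher side and 3 on the lower side, and the median log2 ratio was 0.11. Among all measured genes the shares were 10.4% and 13.3%, and the median was -0.12. Tnfrsf12a, which encodes the TWEAK receptor, was 10.6-fold higher at 1 probe set and 9.57-fold at the other. The endotoxin co-receptor gene Cd14 had 29010.6 on day 1 against 3816.8 on day 0. The lymphotoxin gene Ltb was at least 3.44-fold higher. The classical inducers were on the other side. Tnf, which encodes tumour necrosis factor, had 138.9 on day 1 against 313.5 on day 0, 2.26-fold lower. Il1b, for interleukin 1 beta, had 105.8 on day 1 against 198.2 on day 0, 1.87-fold lower. Tnfrsf1b, a TNF receptor, was 3.42-fold lower at its brighter probe set and at least 1.46-fold higher at the other. The costimulatory receptor gene Cd40 was at least 2.20-fold lower, with 2 further probe sets under the floor on both arrays. Scaled on the hybridisation controls, Tnf was at -0.01 and Il1b at 0.26 log2.

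RANK, the receptor encoded by Tnfrsf11a, drives alveolar growth through NF-kappaB. Its brighter probe set had 449.6 on day 1 against 449.1 on day 0, and the other had 299.8 on day 1 against 484.7 on day 0. Both probe sets of its ligand gene Tnfsf11 were under the floor on both arrays, so no ratio was taken.

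Of 43 kinases, adaptors and ubiquitin enzymes between the receptors and I-kappaB, 35 were measured. Here 2 passed 2-fold on the higher side and 3 on the lower side, against 10.4% and 13.3% of all measured genes. The median log2 ratio was 0.18. The catalytic IKK subunit gene Ikbkb had 962.9 on day 1 against 634.0 on day 0 at its brightest probe set, 1.52-fold higher, while 3 dimmer measured ones had log2 ratios from -0.84 to -0.15. The regulatory subunit gene Ikbkg had 522.5 on day 1 against 348.4 on day 0, 1.5-fold higher, and its 6 probe sets ran from -0.24 to at least 1.21 log2. Chuk, the other catalytic subunit gene, was not named here. The adaptor genes Tradd and Myd88, which link TNF and Toll-like receptors to the IKK complex, were 3.66-fold and 2.60-fold higher. Myd88 had 1564.2 on day 1 against 602.3 on day 0. Map3k14, the kinase of the alternative pathway that acts on the Nfkb2 product, had 122.5 on day 1 against 315.5 on day 0, 2.58-fold lower. Irak2 was 2.40-fold lower and Traf1 at least 2.12-fold lower. Under hybridisation control scaling these 3 lay at -0.20, -0.10 and -0.12 log2.

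Of 18 other I-kappaB genes and negative regulators, 16 were measured. On the higher side 2 passed 2-fold and on the lower side 0, against 10.4% and 13.3% of all measured genes. The median log2 ratio was 0.25. Tnip1, which encodes a partner of the ubiquitin-editing enzyme A20, had 886.1 on day 1 against 378.4 on day 0, 2.34-fold higher. Zfand5, for a zinc finger protein with an A20-type domain, was 2.15-fold higher at its brightest probe set. The gene of A20 itself, Tnfaip3, had 65.5 on day 1 against 127.6 on day 0 at the brighter probe set and 121.5 on day 1 against 18.2 on day 0 at the other, so its direction was not settled. Nfkbib, for I-kappaB beta, had 698.2 on day 1 against 568.3 on day 0, 1.23-fold higher. Its log2 ratio of 0.30 is smaller than the pooled SD of 0.56 between probe sets of a gene. It rests on 1 probe set with the suffix for shared probes, since the other was under the floor on both arrays. As deposited, I-kappaB alpha and I-kappaB beta transcripts lay on opposite sides of 0. Both were above 0 at their brightest probe set under hybridisation control scaling.

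Of 35 textbook target genes outside the other lists, 24 were measured. On the higher side 9 passed 2-fold and on the lower side 3, against 10.4% and 13.3% of all measured genes. The median log2 ratio was 0.46. Gadd45b, a stress-response gene, was 13.8-fold higher at its brightest probe set, 8.45-fold higher at another and 1.28-fold lower at a dimmer one. The hyaluronan receptor gene Cd44 had 841.8 on day 1 against 117.8 on day 0, 7.15-fold higher. The acute phase gene Saa3 had 1721.5 on day 1 against 252.9 on day 0, 6.81-fold higher. Icam1, for an adhesion molecule that binds leukocytes, had 304.1 on day 1 against 117.2 on day 0, 2.59-fold higher. The 3 probe sets of the chemokine gene Cxcl1 were 1.24-fold to 3.93-fold higher. In the other direction, the manganese superoxide dismutase gene Sod2 had 1465.7 on day 1 against 3552.5 on day 0, 2.42-fold lower. A further Sod2 probe set was 2.40-fold lower, but another had 541.5 on day 1 against 591.3 on day 0, 1.09-fold lower, and the mean over its measured probe sets was -0.89 log2. Ccnd1, which encodes cyclin D1, was lower at all 3 probe sets, from 1.84-fold to 3.0-fold. Mmp9, for a matrix protease, was at least 2.03-fold lower. The count of 3 of 24 on the lower side was near the share over all measured genes. It was 0 with ribosomal protein or hybridisation control scaling. Under hybridisation control scaling Sod2 was at -0.11 and Ccnd1 at 0.11 log2.

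The split between the sides in these lists followed the scaling. With the hybridisation controls as the basis, 14 of the receptors and ligands, 25 of the kinases and adaptors, 12 of the other inhibitors and 15 of the targets passed 2-fold on the higher side. On the lower side 0 did so in each list. Of all measured genes 48.7% and 2.28% did so under this scaling, so the shift was not one of these lists alone. With ribosomal protein genes as the basis the counts on the higher side were 7, 10, 4 and 11 in the same order, and those on the lower side were 1, 0, 0 and 0, against 20.1% and 7.73% of all measured genes.

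**Figure D4:**
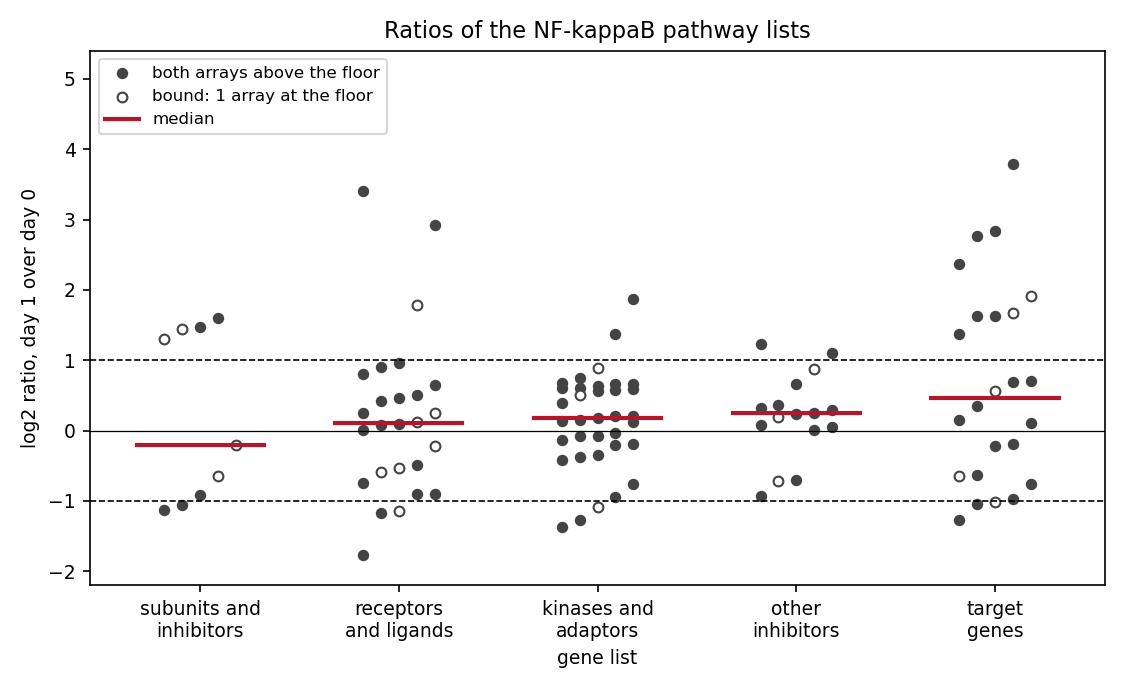
Log2 ratio of day 1 over day 0 of each measured gene in the member list and the 4 pathway lists as deposited, with open circles for bounds, red bars for list medians and dashed lines at 2-fold. The medians run from -0.21 for the subunits and inhibitors, which is the bound of Ikbke, to 0.46 for the target genes. Every list has genes on both sides of 0.

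Leukocytes express many of these genes, and their markers differed between the arrays too. Of all measured genes, 10.4% passed 2-fold on the higher side and 13.3% on the lower side. Of 13 measured macrophage markers, 5 passed 2-fold on the higher side and 1 on the lower side. The summed signal of the list was 38948 on day 1 and 11275 on day 0, or 9937 on day 1 and 7458 on day 0 without Cd14, which was left out after its signal was seen. Of 11 measured B and T cell markers, 4 passed 2-fold on the higher side and 2 on the lower side, with summed signals of 10550 on day 1 and 10257 on day 0. On the higher side Cd3d, Cd3g and Cd79a were bounds, with day 0 under the floor, whereas Cd3e was 2.35-fold lower. Only 4 of 8 named neutrophil markers were measured, with 1 past 2-fold on the higher side and 0 on the lower side. That gene, S100a8, had 386.0 on day 1 against 73.9 on day 0, a bound. The neutrophil list summed to 885.0 on day 1 and 710.1 on day 0. Of 10 luminal epithelial markers, 7 passed 2-fold on the higher side and 1 on the lower side, with sums of 92605 on day 1 and 42209 on day 0. Of 8 measured myoepithelial and 6 measured adipocyte markers, 0 passed 2-fold on either side. On the higher side 1 of 7 measured fibroblast markers did so, and on the lower side 1 of 6 measured endothelial markers. No marker was listed at 0. The part of these differences in the ratios of Rela, Relb, Bcl3 or Nfkbia was not tested.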

How the data were processed

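RNA pooled from 5 mice per day was measured on 1 array per day. The authors made the deposited values, MAS5 signals that are intensities on a linear scale, with the MAS5 algorithms, per the labels. A scaling target is not stated there; the mean after trimming 2% at each end is 250 on both arrays. Where arrays are brought to an equal mean, a difference in background or RNA content is carried into every ratio. The number of arrays limits the precision, and there are no replicates.

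Of 45101 probe sets, 64 were controls, 34945 had 1 symbol, 932 several and 9160 none here; only those with 1 symbol were used. Symbols were updated by gene ID to RefSeq (GRCm38.p6), which matched 34741. Log2 ratios of day 1 over day 0 were taken after a floor at the median signal (77.7), with no test. The ratio calculation was tested on simulated data with changes planted only in bright genes. Changes in dim probe sets and bounds were therefore not covered.

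Alternatives were 5 other scalings, 2 other floors, a pseudocount of 16 with no floor, 2 other probe set rules and a 1.5-fold threshold. Scalings kept each gene's probe set and recomputed the floor.

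Named genes were all members, up to 3 genes past 2-fold in each direction per pathway list, and 12 fixed genes. The members and lists were chosen with earlier results of these data known. Python 3.11.15, pandas 2.3.3 and statsmodels 0.14.6 were used.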

Additional observations from a re-analysis of the deposited data

How the results depend on the processing

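No paired analysis was possible because each day has 1 array. A value was taken as moved when it differed by more than 0.56 log2, the pooled SD between probe sets of a gene, and a count when it differed by more than 1.5 times. As deposited, 4 of 9 members passed 2-fold on the higher side and 2 on the lower side. The number higher was 3 or 4 under the other alternatives but 1 of 5 measured members with a floor at the 75th percentile. The number lower was 1 with median centring, loess, quantile normalization, a floor at the 75th percentile, the mean of all probe sets, and without probe sets ending in _s_at or _x_at. It was 0 with ribosomal protein or hybridisation control scaling, and 4 at a threshold of 1.5-fold. It was 3 with a floor at the 25th percentile and with no floor and a pseudocount of 16, where Rel passed 2-fold. Of all measured genes, 26.0% and 23.0% were at least 2-fold lower under these settings, against 13.3% as deposited. The median log2 ratio of the members is the bound of Ikbke in both cases, -0.21 as deposited and 0.37 with hybridisation control scaling. That scaling also gave 0.038 for Nfkb2 and 0.11 for Nfkbiz, each at least 2-fold lower as deposited, and 0.25 for Nfkbia. Without _s_at and _x_at probe sets Nfkb2 was at 0.56 and Nfkbie at -0.17, since another probe set then stands for the gene. At 1.5-fold, the higher and lower counts were 7 and 6 for receptors and ligands, 10 and 5 for kinases and adaptors, 4 and 3 for other inhibitors and 11 and 7 for targets, against 20.4% and 27.2% of all measured genes. Of 86 member ratios under an alternative, 78 kept their direction. Part of this was fixed in advance, since a member with 1 probe set keeps its ratio under both other probe set rules. A lower floor also leaves a ratio unchanged where both signals exceed 77.7. With the ribosomal protein scaling 20.1% of all measured genes were at least 2-fold higher and 7.73% lower, and with the hybridisation control scaling 48.7% and 2.28%. The cause of the low hybridisation control signal on day 1 was not tested. Bounds for Relb, Nfkbie and Rel depend on the floor: at the 25th percentile their log2 ratios were at least 3.10, at least 3.24 and -2.26.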

Other observations

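Some of the textbook NF-kappaB targets already counted above as 2-fold higher were named here after their values were seen. The survival gene Bcl2l1 had a signal of 972.3 on day 1 against 314.6 on day 0 (log2 ratio 1.63). The stress-response gene Ier3 had 3075.2 on day 1 against 597.7 on day 0 (2.36). The chemokine genes Ccl2 and Ccl5 had 248.7 and 292.1 on day 1 against 16.1 and 20.1 on day 0, bounds of at least 1.68 and 1.91. The complement gene Cfb had 172.6 on day 1 against 339.1 on day 0 (-0.97). Irf1, an interferon regulatory factor gene, had 738.1 on day 1 against 840.3 on day 0 (-0.19), at percentile 46.0 of all measured genes. Neither Cfb nor Irf1 passed 2-fold, and both ratios lie above the hybridisation control median of -1.16.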
